A study of Arabidopsis thaliana with 44 samples.

Results

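The genes described here are the protein-coding and RNA genes carried by the chloroplast genome itself, measured in dark-grown Arabidopsis thaliana seedlings that germinated on the International Space Station or in a matched ground facility. Members were all loci of the deposited expression table whose identifier starts with ATCG and whose mean FPKM, the fragment count of a locus divided by its transcript length and by the size of the library, over the 40 libraries was at least 1. Of 133 plastid loci in a table of 34133 loci, 94 were members. Just inside the threshold lay ATCG00030 with a mean of 2.61 FPKM and ATCG00610 with 18.1, and just outside it ATCG00960 with 0.268 and ATCG01160 with 0.257, so the threshold fell in a gap.

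Whole seedlings in the Col-0 background were grown for 14 days in darkness on sucrose medium and fixed in RNAlater. The 5 genotypes were wild type (WT), bzip28-2, bzip60-2, the double mutant bzip28-2 bzip60-1, and the double mutant ire1a-4 ire1b-2. bZIP28 and bZIP60 are transcription factors of the unfolded protein response, and IRE1A and IRE1B are the sensors that splice the bZIP60 message. Each genotype had 4 flight and 4 ground libraries. The single bzip60-2 line and the bzip28-2 bzip60-1 line carry different bzip60 alleles. Ground seedlings were run 2 days later at Kennedy Space Center under conditions copied from the station. The RNA came from whole seedlings, so each value averages over root and shoot.

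Plastids keep a small genome for photosystem, ATP synthase, NADH dehydrogenase-like complex and ribosomal subunits, for part of their own RNA polymerase, and for their ribosomal and transfer RNAs. It is read by a plastid-encoded bacterial-type polymerase, which needs nucleus-encoded sigma factors and associated proteins, and by phage-type polymerases encoded in the nucleus. In darkness the seedling makes etioplasts in its cotyledons and amyloplasts or other unpigmented plastids elsewhere. Plastid transcripts usually lie in shared precursor RNAs and are not stably polyadenylated. The library kit enriches polyadenylated RNA, so the values here are levels in that fraction and not total plastid RNA.

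The reference annotation used here pairs few of these identifiers with names. Its notes describe ATCG00430 as photosystem II reaction center protein G, ATCG00530 as CemA-like proton extrusion protein-related, ATCG00660 as ribosomal protein L20 and ATCG00670 as plastid-encoded CLP P. ATCG01310 (ribosomal protein L2) lay below the threshold. All other members are given by identifier alone.

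A single nuclear locus, AT2G01021, which the reference lists as protein-coding, took 72.5 ± 14.1% (SD, n = 20) of all FPKM on the ground and 22.5 ± 12.9% (SD, n = 20) in flight, and any such difference shifts every other value in a library. Each fitted difference is therefore given on 2 scales, first as deposited and then, in brackets, after median-ratio rescaling over 13994 nuclear genes. AT2G01021 was handled as ribosomal RNA and left out of those genes. The kind of RNA behind its reads was not tested. "Rose" and "fell" are used where limma's test called the same direction on both scales at a Benjamini-Hochberg adjusted p of at most 0.05, computed over 19186 loci. Level differences between loci rest on FPKM, which is per transcript length.

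Plastid loci made up a larger part of the libraries in flight. Outside AT2G01021, the 94 loci held 3.96 ± 1.13% of FPKM on the ground (SD, n = 20) and 8.04 ± 2.38% in flight (SD, n = 20). In WT the share averaged 3.10% on the ground and 8.06% in flight, a ratio of 2.60. The ratios were 2.21 in bzip28-2, 1.93 in bzip60-2, 1.66 in bzip28-2 bzip60-1 and 1.89 in ire1a-4 ire1b-2. The flight and ground libraries did not overlap in WT or bzip28-2 and overlapped in the other genotypes, as in bzip28-2 bzip60-1, where flight libraries ranged from 3.69 to 11.2%. By a two-sided exact permutation test, p was 0.0286 in WT and bzip28-2, the smallest p that 4 against 4 allows, 0.0571 in bzip60-2, 0.2 in bzip28-2 bzip60-1 and 0.0857 in ire1a-4 ire1b-2. Adjusted over the 5 genotypes by exact test, none passed: the values were 0.0714, 0.0714, 0.0952, 0.2 and 0.107 in the same order.

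**Figure D1:**
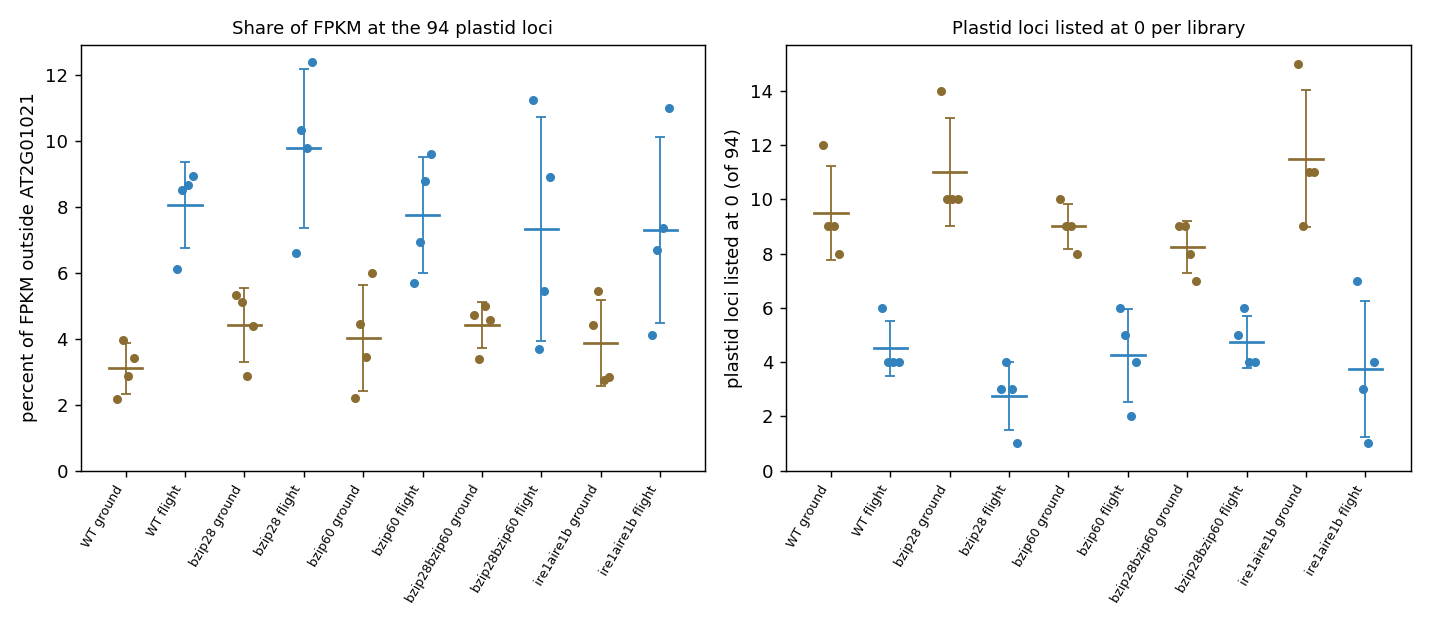
Left, percent of FPKM outside AT2G01021 at the 94 plastid loci; right, number of the 94 loci listed at 0. Each point is a library, horizontal lines are group means and error bars are SD (n = 4); flight groups are higher on the left, with overlap in bzip60, bzip28bzip60 and ire1aire1b, and lower on the right, where the ground libraries hold 7 to 15 loci at 0 and the flight libraries 1 to 7.

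The labels name the sequencing lane of each library, and lane and condition were partly mixed. In lane 2 the plastid share was 10.7 ± 1.3% in flight (n = 4) and 3.48 ± 1.10% on the ground (n = 6). In lane 4 it was 6.14 ± 2.21% in flight (n = 5) and 4.09 ± 1.22% on the ground (n = 5). Lane 1 held 11 flight libraries and no ground library, and lane 3 held 9 ground libraries and no flight library. The direction was the same in both mixed lanes and the difference was smaller in lane 4. Lane 2 flight libraries were of bzip28-2, bzip60-2 and ire1a-4 ire1b-2 and its ground libraries of WT, bzip60-2 and bzip28-2 bzip60-1, and lane 4 had unequal numbers per genotype, so within a lane genotype and condition are mixed. The 5 shoot marker genes were LHCB1.3, RBCS1A, ATML1, PDF1 and STM. LHCB1.3 and RBCS1A are photosynthesis genes, so the sum is not a gauge of shoot tissue alone. It moved with the plastid share, from 138–586 FPKM on the ground to 1249–2431 in flight as deposited. After rescaling it went from 180–670 to 904–1770. The summed FPKM of 7 root markers was 451–3071 and 2048–4000 as deposited, and 1110–2640 and 1661–3316 after rescaling. For these the conditions overlapped on both scales. In WT the median change of the 5 shoot markers was 3.08 (2.17), and that of the 4 root markers tested was 1.38 (0.55). Sums of 5 seed markers were at most 6.16 (8.57) on the ground and 0.186 (0.151) in flight. No marker was at 0 throughout, and the part of tissue make-up in the plastid values was not tested. More plastid-bearing cells and more plastid RNA per cell cannot be told apart in whole seedlings. Whether polyadenylated RNA was enriched alike in flight and ground libraries was not tested either, and rescaling does not address it.

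Within a group the plastid loci moved up and down together from library to library. Over the 76 members above 0 in every library, the median SD within groups was 0.60 on the log2 scale of rescaled values. It was 0.28 after each library's median deviation over the 76 loci was taken off. Other tested loci had a median SD of 0.19 on that scale, with no library deviation taken off. For those with a mean of at least 10 FPKM it was 0.16. Library deviations ran from -0.93 in bzip28-2 bzip60-1 flight replicate 2 to 0.86 in ire1a-4 ire1b-2 flight replicate 4. In the first of these, 1 of the 76 loci was above its group mean. In bzip28-2 bzip60-1 flight replicate 1 all 76 were above it, and in ire1a-4 ire1b-2 flight replicate 1 none of the 76 was. The loci of a library are therefore not separate observations of a condition.

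**Figure D2:**
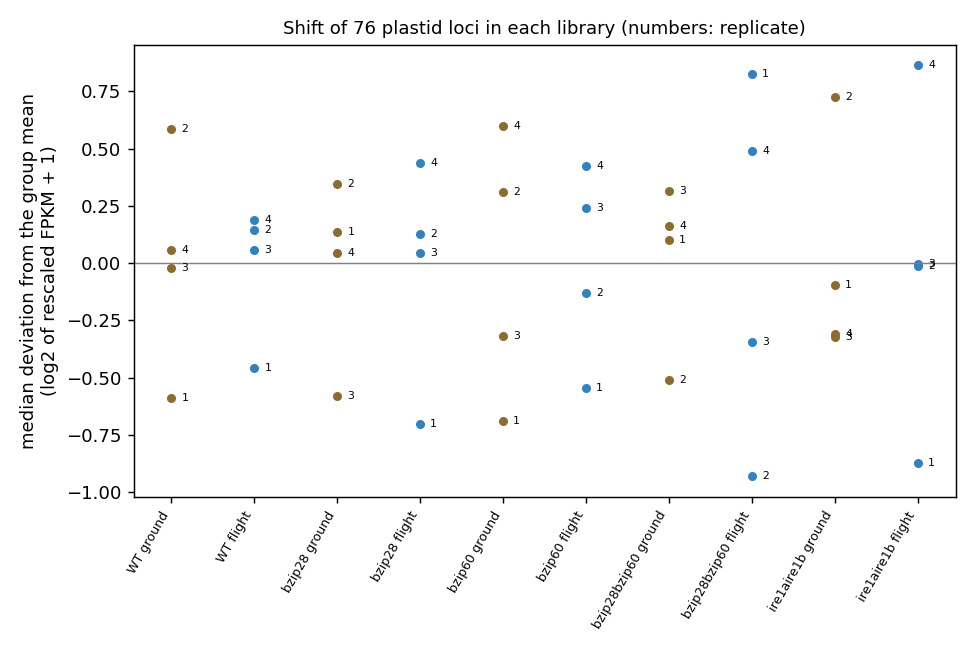
Median deviation of the 76 plastid loci without zeros from their group means (log2 of rescaled FPKM + 1), with 1 point per library and its replicate number beside it. The widest groups are bzip28bzip60 flight and ire1aire1b flight, with libraries from -0.93 to 0.82 and from -0.87 to 0.86.

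Flight against ground was the comparison the experiment was built on. Most plastid loci rose in flight in WT, bzip28-2 and bzip60-2, and fewer in bzip28-2 bzip60-1. In every genotype fewer members were called higher after rescaling than as deposited. In WT 60 of 94 members rose and the median change was 2.34 (1.44), against 0.88 (0.10) over all tested loci. Of all tested loci 35.6% were higher on both scales in WT. In bzip28-2 58 members rose, against 35.2% of all loci, with a median of 2.28 (1.24). In bzip60-2 50 rose, against 33.3%, with a median of 1.35 (1.09). In ire1a-4 ire1b-2 47 rose, against 34.2%, with a median of 2.04 (1.10). In bzip28-2 bzip60-1 20 rose, or 21.3% of the members against 32.6% of all loci. The median there was 1.36 (0.64), against 0.71 (0.09) over all tested loci, and after rescaling 81 of 94 members had a change above 0. The median rescaled SD within groups was 0.63 for members and 0.19 for other tested loci, so the count of calls is not a measure of the size of change.

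As deposited, without the rescaling, 82, 83, 65, 73 and 81 members were higher in flight in the order WT, bzip28-2, bzip60-2, bZIP double mutant, IRE1 double mutant, against 77.8, 82.2, 40.6, 71.2 and 80.6% of all tested loci. Member shares on this scale were thus near the background except in bzip60-2. No member was lower as deposited in any genotype by limma, where 3.09, 1.88, 7.97, 2.64 and 2.17% of all loci were, and none was lower at an unadjusted p under 0.05. After rescaling, ATCG00020 was the 1 member lower in each double mutant, against 22.4 and 23.9% of all loci in bzip28-2 bzip60-1 and ire1a-4 ire1b-2. In WT, bzip28-2 and bzip60-2, where 24.8, 24.1 and 22.6% of all loci were lower after rescaling, no member was called, with 0, 1 and 0 at an unadjusted p under 0.05. Single libraries mattered. On the rescaled scale the bzip60-2 count was 29 without ground replicate 1, the bzip28-2 bzip60-1 count 11 without flight replicate 1 or flight replicate 4, 12 without ground replicate 2 and 34 without flight replicate 2, and the ire1a-4 ire1b-2 count 25 without flight replicate 4.

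Taken by locus, 19 members rose in all 5 genotypes, 51 in 1 to 4 of them and 24 in none, and none fell in any. Of all 19186 tested loci, 24.2% rose in all 5, 21.3% in 1 to 4 and 54.5% in none, and 8.38% fell in 1 or more. The share of members that rose in all 5 was thus near the background. Of the 19, 9 are consecutive loci, ATCG00740 to ATCG00820. This run was picked after the values were seen, so it is described without a test of the run as a whole.

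ATCG00780 had the largest changes of the run in most genotypes. On the ground its WT libraries had 48.9, 96.1, 78.4 and 58.3 FPKM, and in flight 1075, 1153, 556 and 1253. The groups did not overlap, and the log2 change was 3.81 ± 0.43 (SE; rescaled 2.89 ± 0.42; limma adjusted p 1.34e-09 and 4.86e-07). In bzip28-2 bzip60-1 the ground libraries had 144, 72.6, 170 and 231 FPKM and the flight libraries 822, 382, 878 and 1176. These groups did not overlap either, and the change was 2.40 (1.68), with limma adjusted p of 1.03e-05 and 0.00114. In bzip60-2 the ground libraries had 141, 456, 131 and 190 FPKM and the flight libraries 655, 1193, 1474 and 1144, so that ground replicate 2 stood well above the other ground libraries and still below every flight library. In bzip28-2 the change was 3.71 (2.67), and in ire1a-4 ire1b-2 it was 3.24 (2.27), with adjusted p by limma of at most 2.66e-05 on either scale.

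Among the 76 members without zeros ATCG00780 ranked 1 or 2 by rescaled change in every genotype. ATCG00760 rose by 3.66 (2.74) in WT, from 202–326 FPKM to 1584–4833, and by 2.40 (1.67) in bzip28-2 bzip60-1, from 191–753 to 1624–3317. All 9 loci ranked between 1 and 12 of 76 in every genotype.

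The run's median change was 3.54 (2.63) in WT, 3.44 (2.41) in bzip28-2, 2.24 (1.97) in bzip60-2, 2.33 (1.61) in bzip28-2 bzip60-1 and 3.06 (2.09) in ire1a-4 ire1b-2. The other 85 members had medians of 2.29 (1.37), 2.2 (1.16), 1.31 (1.06), 1.31 (0.59) and 1.93 (0.99) in the same order. Leaving out single libraries reuses the data on which the run was picked, so it shows only the weight of each library. Whether the 9 loci lie in shared precursor RNAs was not tested. With each library left out in turn, all 9 loci rose on both scales in every setting of 4 genotypes. In bzip28-2 bzip60-1 all 9 rose in 5 of 8 settings and 8 of them in the others, which left out flight replicate 1, flight replicate 4 or ground replicate 2.

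The share of plastid FPKM held by the run does not depend on scaling. In WT it was 5.24 ± 0.99% on the ground and 13.1 ± 4.15% in flight (SD, n = 4 each). It went from 4.58 ± 0.79 to 11.1 ± 2.37% in bzip28-2, from 6.20 ± 1.51 to 12.3 ± 3.18% in bzip28-2 bzip60-1 and from 5.29 ± 1.34 to 11.2 ± 0.63% in ire1a-4 ire1b-2. In bzip60-2 it was 9.01 ± 4.52% on the ground, where replicate 2 alone stood at 15.7%, and 15 ± 2.06% in flight.

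**Figure D3:**
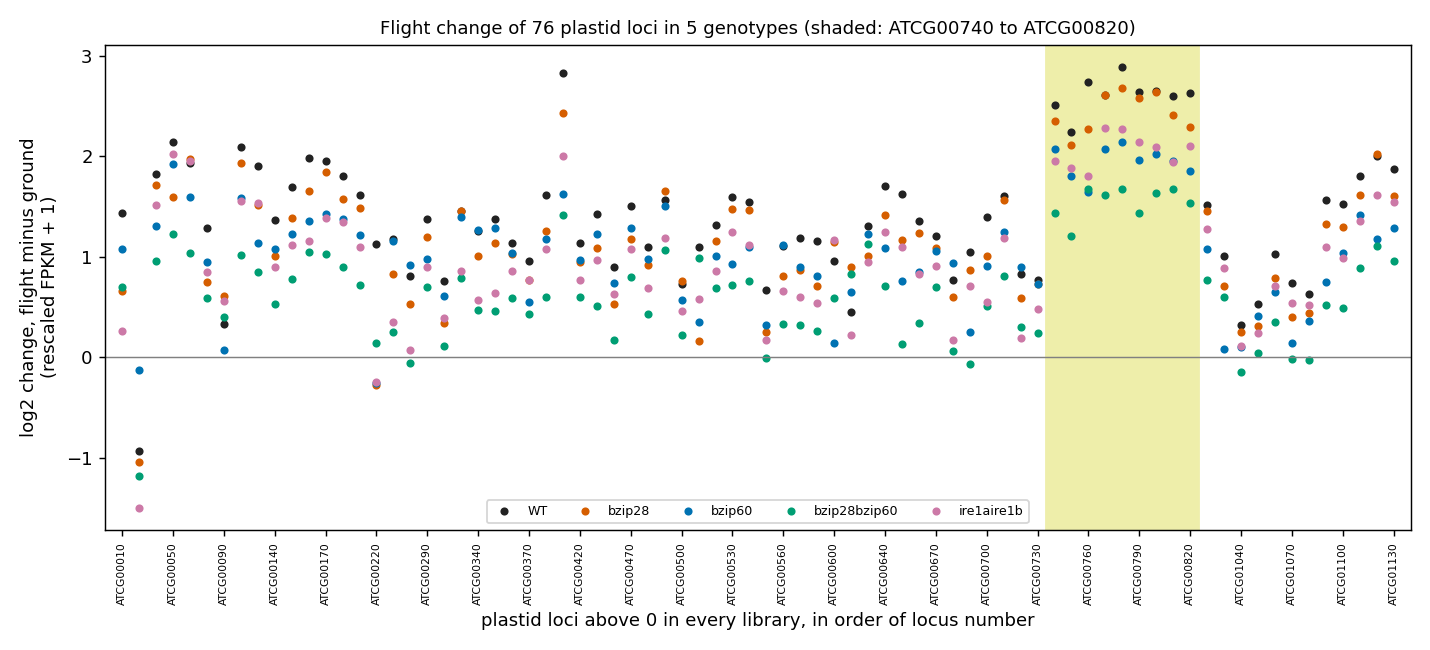
Flight minus ground difference in log2(rescaled FPKM + 1) for the 76 plastid loci above 0 in every library, in order of locus number, with 1 colour per genotype. The 9 shaded loci, ATCG00740 to ATCG00820, have medians from 1.61 to 2.63 by genotype, and ATCG00020, the second locus from the left, lies below 0 in all 5.

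Outside the run, ATCG00400 had the highest mean level of the 94 loci, 3876 FPKM, and ranked between 2 and 11 of the 76 members without zeros by rescaled change. In WT its ground libraries had 475, 295, 374 and 772 FPKM and its flight libraries 5301, 8921, 4358 and 6496. No flight library of any genotype, from 2888 to 10430 FPKM, overlapped any ground library, from 295 to 2644. The log2 change was 3.75 ± 0.35 in WT (SE; rescaled 2.83 ± 0.31; limma adjusted p 1.67e-11 and 1.74e-09). It was 3.48 (2.43) in bzip28-2, 1.90 (1.63) in bzip60-2, 2.14 (1.42) in bzip28-2 bzip60-1 and 2.98 (2.00) in ire1a-4 ire1b-2. Its share of plastid FPKM was 5.65 ± 2.30% on the ground and 11.3 ± 3.11% in flight (SD, n = 20 each). It rose in each of the 8 settings per genotype that left out a library.

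The other members among the 5 with the highest means are given by their medians. ATCG00065 (mean 2425 FPKM) had a median of 713 on the ground and 4261 in flight as deposited, and of 880 and 3309 after rescaling, and rose in all 5 genotypes. ATCG00690 (mean 2080) had medians of 1114 and 2678 as deposited and 1533 and 1962 after rescaling, and was called on both scales in 0 of 5 genotypes. ATCG00550 (mean 1871) had 1158 and 2449 (1504 and 1838 rescaled) and was likewise called in 0 of 5. ATCG00010 (mean 1827) had 945 and 2303 (1259 and 1923 rescaled) and rose in WT alone of the 5 genotypes. ATCG00550 held 6.87 ± 1.50% of plastid FPKM on the ground and 4.16 ± 0.75% in flight, and ATCG00690 had 6.59 ± 1.93% and 4.78 ± 0.99% (SD, n = 20 each). The 5 loci with the highest means, ATCG00400 included, together held 29.1 ± 2.58% of plastid FPKM on the ground and 31.3 ± 2.13% in flight.

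ATCG00020 stood at the other end of the ranking. Its WT ground libraries had 141, 229, 192 and 238 FPKM and its WT flight libraries 126, 180, 362 and 172, so that the groups overlapped. The difference was -0.02 (-0.93) in WT, 0.00 (-1.04) in bzip28-2, 0.14 (-0.13) in bzip60-2, -0.46 (-1.18) in bzip28-2 bzip60-1 and -0.52 (-1.50) in ire1a-4 ire1b-2. Only the last 2 passed limma's test, and only on the rescaled scale, with adjusted p of 0.0465 and 0.0116. It ranked 75 or 76 of 76 by rescaled change in each genotype, and by median level it was 18th of 94 on the ground and 72nd in flight.

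**Figure D4:**
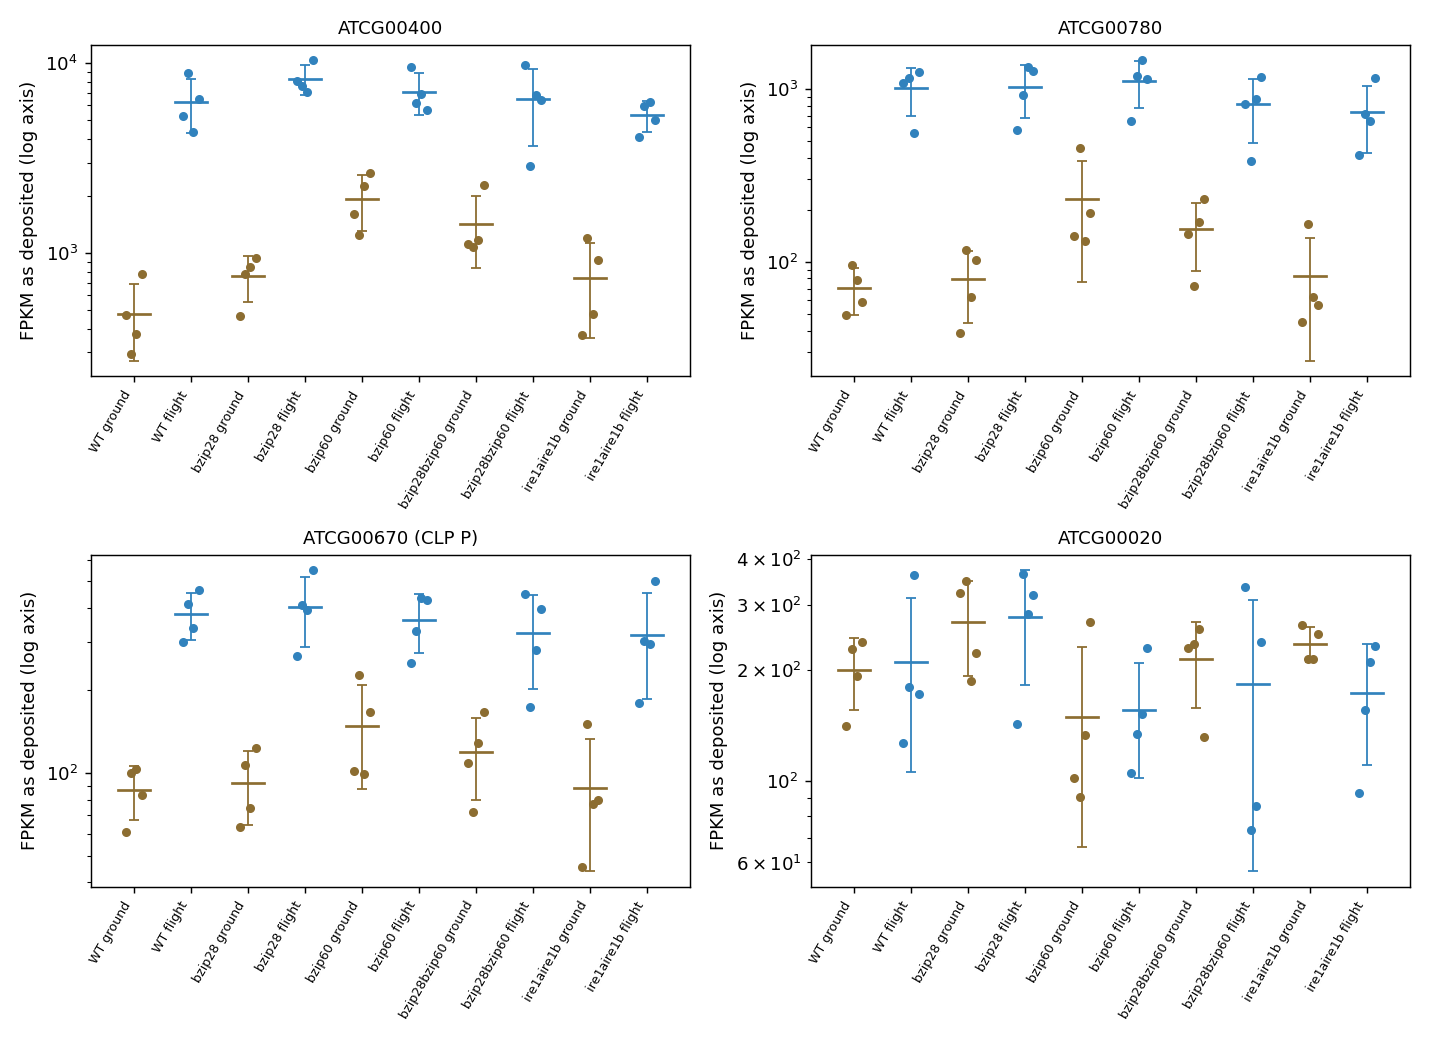
FPKM as deposited, on log axes, of 4 plastid loci in every library, with group means (lines) and SD (bars, n = 4). ATCG00400 flight libraries (2888 to 10430) all lie above the ground libraries (295 to 2644), ATCG00780 and ATCG00670 separate flight from ground within each genotype, and ATCG00020 overlaps in every genotype.

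Centring each library on its plastid loci, so that only changes relative to the other members remain, called 13 members higher and 10 lower in WT. The counts were 21 and 12 in bzip28-2, 9 and 11 in bzip60-2, 8 and 1 in bzip28-2 bzip60-1, and 14 and 13 in ire1a-4 ire1b-2. On this centring 1.24, 1.06, 1.36, 1.74 and 1.26% of all tested loci were higher and 81.7, 76.9, 61.3, 17.8 and 70.7% lower in the same order of genotypes, so these counts describe order among plastid loci only. ATCG00740, ATCG00770, ATCG00780, ATCG00800 and ATCG00810, all of the run, were higher in all 5 genotypes, and ATCG00020 was lower in all 5.

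The 4 members with a described product that are given here rose in WT and bzip28-2 and varied in the others. ATCG00670, the proteolytic subunit of the Clp protease, which degrades stromal proteins, went in WT from 61.1, 100, 103 and 83.4 FPKM to 301, 413, 338 and 467, a change of 2.12 (1.21). It rose by 2.13 (1.08) in bzip28-2, 1.33 (1.06) in bzip60-2 and 1.88 (0.91) in ire1a-4 ire1b-2. In bzip28-2 bzip60-1 the change of 1.42 (0.69) missed the threshold on the rescaled scale (limma adjusted p 0.0837). As deposited its flight libraries all lay above its ground libraries, as did those of 57.4% of all tested loci in this genotype.

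ATCG00660, for a protein of the large plastid ribosomal subunit, had 77.4, 125, 105 and 90.2 FPKM on the ground in WT and 412, 621, 319 and 626 in flight. It rose by 2.27 (1.35) in WT and 2.28 (1.23) in bzip28-2. The changes of 1.12 (0.84) in bzip60-2, 1.06 (0.34) in bzip28-2 bzip60-1 and 1.8 (0.83) in ire1a-4 ire1b-2 did not pass after rescaling. ATCG00430, described as a photosystem II protein but noted as the best plastid match of a nuclear gene with an NADH:ubiquinone oxidoreductase domain, rose by 2.33 (1.42) in WT, 2.12 (1.09) in bzip28-2 and 1.50 (1.23) in bzip60-2. Its changes of 1.22 (0.51) in bzip28-2 bzip60-1 and 1.93 (0.97) in ire1a-4 ire1b-2 did not pass after rescaling. ATCG00530 rose in every genotype but bzip28-2 bzip60-1, by 2.5 (1.60) in WT, 2.51 (1.48) in bzip28-2, 1.20 (0.93) in bzip60-2 and 2.2 (1.24) in ire1a-4 ire1b-2. In bzip28-2 bzip60-1 the change was 1.43 (0.72).

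Zeros set some members apart. Of 3760 values, 277 (7.37%) were listed at 0, 197 of 1880 (10.5%) on the ground and 80 of 1880 (4.26%) in flight. By group the share of zeros ran from 8.78% in bzip28-2 bzip60-1 to 12.2% in ire1a-4 ire1b-2 on the ground, and from 2.93% in bzip28-2 to 5.05% in bzip28-2 bzip60-1 in flight. Other tested loci had 1.37 to 2.16% of values at 0 in the ground groups and 0.832 to 0.955% in the flight groups. More zeros on the ground were thus not particular to plastid loci. AT2G01021 took 72.5% of FPKM on the ground and 22.5% in flight, and its part in the zeros was not tested. The number of members at 0 was lower in every flight library than in any ground library of its genotype (exact permutation p 0.0286 in each genotype, the smallest possible, and 0.0286 adjusted over 5).

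The zeros lay in 18 members, and each of the 18 had more zeros on the ground than in flight. Their mean levels ran from 2.61 to 484 FPKM with a median of 136, against a median of 233 for the members without zeros. Where they were listed above 0, the lowest value was 22.5 FPKM and the median 194. A locus could thus be at 0 in a library and far above that in another of the same group. ATCG00060 had 735, 1724, 0 and 62.5 FPKM in the ire1a-4 ire1b-2 ground libraries. A listed 0 may be a failed estimate, so no group mean is given for these members and the depth behind it is unknown. Their median SD within groups was 2.52 on the rescaled log2 scale.

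ATCG00030 was at 0 in 38 of 40 libraries, with 36.6 FPKM in bzip60-2 flight replicate 3 and 67.7 in ire1a-4 ire1b-2 flight replicate 3. ATCG00610 was at 0 in 30 libraries, ATCG00230 and ATCG00250 in 28 and ATCG00310 in 27. ATCG00260 was at 0 in 19 of 20 ground libraries, the exception being WT replicate 4 with 41.2 FPKM, and in 4 of 20 flight libraries. In flight it had 102, 213, 195 and 113 FPKM in bzip28-2 bzip60-1 and 403, 201, 177 and 82.7 in ire1a-4 ire1b-2, so that flight and ground libraries did not overlap in these genotypes, and it rose in both and in bzip28-2. ATCG00200 was at 0 in 13 ground libraries and above 0 in all 20 flight libraries. ATCG00410 had 56.5, 0, 0 and 0 FPKM in the WT ground libraries and 405, 96.5, 871 and 154 in flight.

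The loci with the largest fitted rises were mostly of this kind, and no fold is given for them because it depends on the zeros. They were ATCG00410, ATCG00210 and ATCG00080 in WT, ATCG00390, ATCG00410 and ATCG00310 in bzip28-2, and ATCG00320, ATCG00200 and ATCG00610 in bzip60-2. In ire1a-4 ire1b-2 they were ATCG00260, ATCG00200 and ATCG00100. In bzip28-2 bzip60-1 ATCG00260 was followed by ATCG00780 and ATCG00760. Of the members that rose, 3 of 60 in WT, 8 of 58 in bzip28-2, 3 of 50 in bzip60-2, 1 of 20 in bzip28-2 bzip60-1 and 6 of 47 in ire1a-4 ire1b-2 had zeros.

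**Figure D5:**
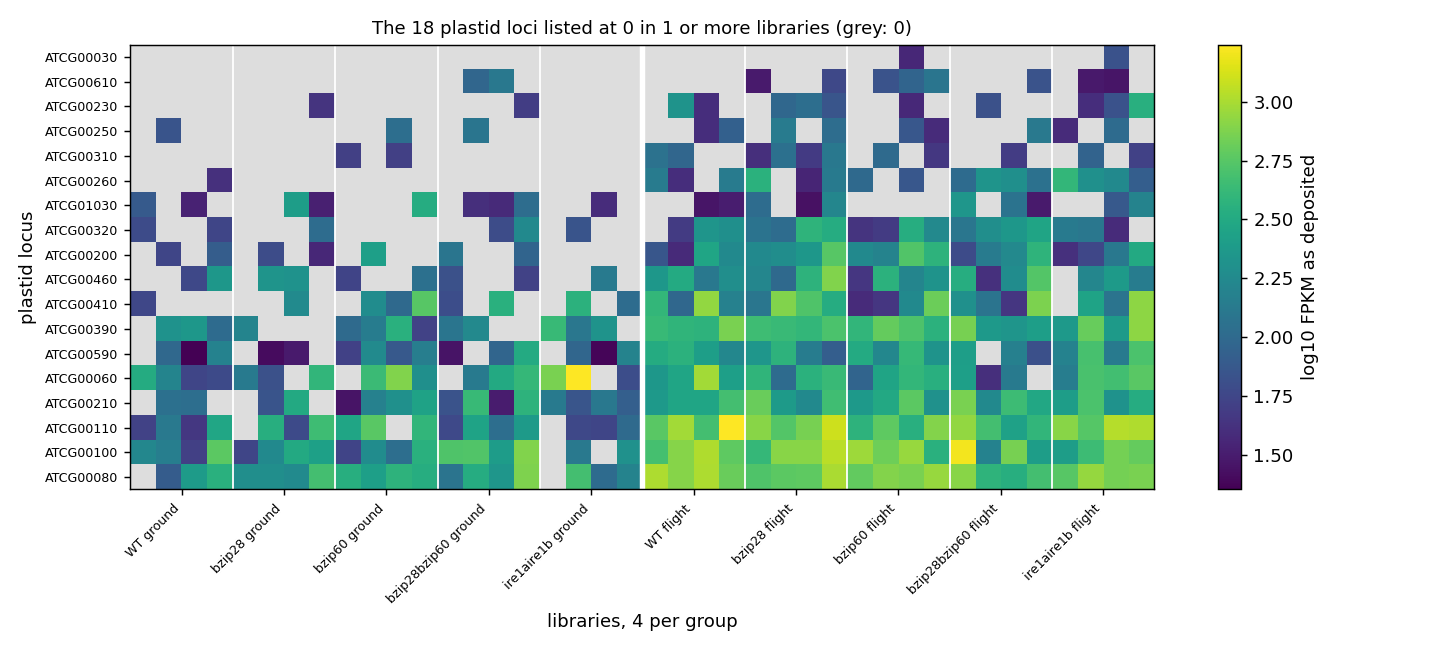
FPKM as deposited (colour, log10 scale) of the 18 plastid loci listed at 0 in 1 or more of the 40 libraries, with grey for 0, ground groups on the left and flight groups on the right. Grey fills more of the ground side, and coloured cells start at 22.5 FPKM.

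Below the threshold lay 39 plastid loci, 21 of them at 0 in every library. Of the 39, 37 fell in 2 runs of consecutive identifiers, ATCG00830 to ATCG01000 (19 loci) and ATCG01140 to ATCG01310 (18 loci), and the others were ATCG00240 and ATCG00450. The RefSeq chloroplast sequence holds a perfect inverted repeat of 26264 bases in a genome of 154478, and 33 of its 129 gene entries start in either copy. ATCG01310, described as ribosomal protein L2, lies in the second run, and the reference has 2 entries for rpl2. Reads that match both copies equally can be lost or split in counting, and how the authors' pipeline treated them is not given in the sources used here.

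The mutants were compared with WT to ask whether the unfolded protein response bears on seedling expression. Few plastid loci differed on both scales. On the ground no member was called in bzip28-2 or ire1a-4 ire1b-2 by limma on either scale, with 1 and 3 members at an unadjusted p under 0.05 as deposited (5 and 4 rescaled). Of all loci 0.704 and 0.136% were called as deposited and 3.35 and 0.485% after rescaling. In bzip60-2 43 members were higher as deposited, where 70.1% of all loci were called, and 1 was after rescaling, against 4.6%. The count as deposited was 23 without bzip60-2 ground replicate 2 or WT ground replicate 1, and 28 without bzip60-2 ground replicate 4. The locus called on both scales was ATCG00400, at 2.05 (1.41) over WT (limma adjusted p 1.32e-04 and 0.00645). Its bzip60-2 ground libraries had 1612, 1244, 2246 and 2644 FPKM and the WT ground libraries 475, 295, 374 and 772, without overlap. It was also the 1 member called in bzip28-2 bzip60-1, at 1.58 (1.37), with 1124, 1074, 1180 and 2287 FPKM (limma adjusted p 0.021 and 0.0114), where 0.891 and 2.39% of all loci were called. That call was lost as deposited without bzip28-2 bzip60-1 ground replicate 4, WT ground replicate 2 or WT ground replicate 3.

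In flight no member differed between any mutant and WT by limma on either scale. At an unadjusted p under 0.05, 1, 1, 0 and 0 members stood out as deposited in bzip28-2, bzip60-2 and the double mutants of bZIP and IRE1, and 0, 1, 0 and 0 after rescaling. Of all loci 0.162, 0.156, 0.177 and 0.172% were called as deposited and 0.182, 0.25, 0.318 and 0.235% after rescaling. The order of levels over the 94 members was alike among flight groups, with Spearman correlations of their mean profiles from 0.95 to 0.982 as a description.

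Whether the change itself depended on genotype was tested as a difference of differences against WT. In bzip60-2 3 members had a smaller response as deposited: ATCG00400 by -1.85 ± 0.49, ATCG00760 by -1.75 ± 0.60 and ATCG01020 by -1.57 ± 0.48 (log2 ± SE; limma adjusted p 0.035, 0.0432 and 0.0376). Of all loci 22.2% were called there. After rescaling the differences were -1.21, -1.10 and -0.92 and none passed, with 3 members at an unadjusted p under 0.05 and 0.0469% of all loci called. No member was called in bzip28-2, bzip28-2 bzip60-1 or ire1a-4 ire1b-2 on either scale by limma, with 0, 22 and 1 at an unadjusted p under 0.05 as deposited and 0, 2 and 2 rescaled. Of all loci 0.0208, 0.0156 and 0.00521% were called as deposited and 0.0678, 0.0834 and 0.00521% after rescaling. The lower count of risen loci in bzip28-2 bzip60-1 was thus not matched by a called difference from WT at any single member. There 3.99% of all loci as deposited, and 7.05% rescaled, had an unadjusted p under 0.05 by limma, beside 22 and 2 members. The members' median difference from WT was -1.07 (-0.88), against -0.17 (-0.01) over all tested loci, with 7 (8) members above 0. Plastid loci of a library moved together, so these members are not separate observations, and a smaller response of the set was not tested. With single libraries left out, the bzip60-2 count ran from 0 to 14, the latter without WT flight replicate 3. These comparisons share the WT libraries.

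Nuclear genes that serve plastid transcription and RNA turnover were followed beside the plastid loci. Of 13 proteins associated with the plastid-encoded polymerase, 12, 12, 12, 11 and 11 rose in WT, bzip28-2, bzip60-2, the bZIP double mutant and the IRE1 double mutant, where 35.6, 35.2, 33.3, 32.6 and 34.2% of all tested loci rose, the background for each list below too. PTAC7, a component of that polymerase complex, went from 4.10 ± 0.70 FPKM on the ground to 30.7 ± 8.79 in flight in WT (SD, n = 4), a change of 2.60 (1.78). Of 6 sigma factors, which direct the polymerase to promoters, 5 were tested and 3, 3, 4, 3 and 4 rose. SIG2 rose by 1.89 (1.07) and SIGF by 1.96 (1.16) in WT, while the difference for SIG4 was 0.05 (-0.66). Of 6 plastid ribonucleases and RNA-binding proteins, 6, 6, 6, 5 and 6 rose. CSP41A, an RNA-binding endonuclease, rose by 3.37 (2.69) in WT from 1.09 ± 0.38 to 20.8 ± 5.37 FPKM, and its partner CRB by 2.55 (1.74).

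Of the phage-type polymerases, SCA3, the plastid enzyme, rose in all 5 genotypes, by 1.27 (0.45) in WT. AT5G15700, whose product serves plastids and mitochondria, differed by 0.46 (-0.30) in WT, with the sign turning on rescaling. Over all 26 tested nuclear genes of these lists 22, 22, 23, 20 and 22 rose, with medians of 1.54 (0.73), 1.59 (0.67), 0.87 (0.60), 1.21 (0.53) and 1.46 (0.64). In bzip28-2 bzip60-1, where 20 of 94 plastid loci rose, 20 of these 26 nuclear genes and 32.6% of all tested loci did. The median change of the plastid loci in that genotype, 1.36 (0.64), was no smaller than that of the nuclear genes, 1.21 (0.53). The difference in counts is thus not a difference in the size of change.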

How the data were processed

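Per the labels' protocols, RNA of dark-grown whole seedlings was made into stranded mRNA libraries. The FPKM values were deposited by the authors as a table of 40 libraries, in which 4 of 44 samples named in the labels have no column (not analysed here). The submitters' processing notes name FastQC 0.11.5, cutadapt 1.8.1, Bowtie2 2.2.4, TopHat2 2.0.14, Cufflinks 1.3.0 and the build TAIR10. The reference annotation is TAIR10.1, so no coordinates or sequences are given. Depth is unknown: low values compared between a pair of WT flight libraries showed no steps of whole reads.

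Differences were tested with limma 3.58.1 (R 4.3.3; lmFit and eBayes with trend) on log2(FPKM + 1) for 19186 loci with a mean of at least 1, in 1 model of 10 groups with 30 residual degrees of freedom, over 17 comparisons adjusted by Benjamini-Hochberg. Fold changes on this scale understate those of low loci. The rescaled values divide each library by its median ratio over 13994 nuclear genes above 1 in every library. On data simulated for WT flight against ground over 19186 genes, the test recovered 92 of 100 genes changed by a log2 of 1 and 99 of 100 changed by 2, with 6 false calls. The changed genes were drawn from all tested loci above a set level. Noise was drawn separately for each gene, without the library shifts that plastid loci share. The median rescaled SD was 0.63 for members and 0.19 for other tested loci, so these recoveries do not describe the plastid loci. The labels' protocols speak of plate replicates without tying libraries to plates; where libraries share a plate, p-values measure only a spread that may be technical. Same-numbered libraries did not deviate together throughout (correlations from -0.16 to 0.23). Sample titles also carry codes that match between flight and ground libraries. In WT and bzip28-2 bzip60-1 the replicate numbers do not follow these codes throughout, so the correlations cannot show whether code-matched libraries pair, which was not tested.

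Members and lists were chosen with earlier results of these data known. Named loci are the 3 largest rises and falls called on both scales per flight comparison, up to 3 calls on both scales per mutant comparison, all members where 5 or fewer were called, the 5 with most zeros and the 2 on each side of the threshold. Parts of the rule on named genes and role classes could not be applied because the sources do not pair plastid identifiers with names; the 5 highest loci, those described in the reference notes (another such locus is not reported here), ATCG00020 and ATCG00060 were added after values were seen. Shoot, root and seed marker sums, nuclear lists, other pseudocounts, filters, lanes, zeros as missing and left-out libraries were also computed.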

Additional observations from a re-analysis of the deposited data

Results flagged for a closer look

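Of 140 sets of 4 libraries examined, 7 had 1 library far from the other 3, where chance gives about 1 in 20. The number flagged was thus near the chance level. WT flight replicate 1 had the lowest plastid share of its group, 6.12%, and 6 members at 0. In bzip28-2 ground replicate 1, 14 members were at 0, and AT2G01021 took 89.9% of FPKM, its highest share in any library. ATCG00530 was low in bzip60-2 flight replicate 2, at 155 FPKM. In bzip28-2 bzip60-1 ground replicate 4, ATCG00400 (2287 FPKM) and ATCG00065 (1911 FPKM) were both high. In ire1a-4 ire1b-2 ground replicate 2, ATCG00780 (165 FPKM) was high. The loci examined were chosen after their values were seen.

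The flight response was smaller in bzip60-2 than in WT at ATCG00400 (-1.85), ATCG00760 (-1.75) and ATCG01020 (-1.57) by limma's test of the difference as deposited, with adjusted p of 0.035, 0.0432 and 0.0376. After rescaling the adjusted p were 0.397, 0.676 and 0.569.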

How the results depend on the processing

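Of 356 alternative values of member counts, 302 stayed within 1.5 times the count as deposited. Rescaling moved members higher in flight to 20 in bzip28-2 bzip60-1 and 47 in ire1a-4 ire1b-2, members lower to 1 in each, the bzip60-2 ground count to 1 and its interaction count to 0. Leaving out AT2G01021 gave 22 and 52 higher and 1 lower in each of the double mutants. Plastid centring gave 13, 21, 9, 8 and 14 higher and 10, 12, 11, 1 and 13 lower in WT, bzip28-2, bzip60-2, the bZIP double mutant and the IRE1 double mutant. The 3 alternatives on rescaled values were chosen after seeing the data: a lane covariate gave 54, 49, 24 and 46 higher in WT, bzip28-2, bzip28-2 bzip60-1 and ire1a-4 ire1b-2, with 1 lower in the last; zeros as missing gave 50, 19 and 43 higher in bzip28-2 and the double mutants, with 2 and 1 lower in the latter; and left-out libraries gave the counts printed with the flight comparison. Without a filter on low values the bzip28-2 bzip60-1 ground count was 0 and the bzip60-2 interaction count 1. With a replicate block, although the numbers do not pair the libraries, the bzip60-2 interaction count was 6; the block moved no other count by over 1.5 times. Leaving out 1 library at a time gave 23 to 54 in bzip60-2 on the ground (23 without its replicate 2 or WT replicate 1, 28 without its replicate 4), 0 to 1 in both double mutants on the ground, 0 to 14 for the bzip60-2 interaction (14 without WT flight replicate 3), and 0 to 1 lower in bzip28-2 bzip60-1. The cause of these differences was not tested. Unknown depth limits what a listed 0 can show.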
